A study of Homo sapiens with 12 samples.

Results

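The response to poly(dA:dT), an artificial AT-only DNA duplex detected in the cytosol, was examined in HT1080 cells that had received siRNA against mutant NRAS. HT1080 is an established human fibrosarcoma line whose NRAS gene carries the Q61K change. The tested libraries were siQ61K with poly(dA:dT) (n = 3), set against siQ61K with DMSO (n = 3), and these made up 6 of the 12 samples of the series. The other 6 were siNC, the control siRNA, with poly(dA:dT) (n = 3) and with DMSO (n = 3). All groups share the cell line and an siRNA, only 1 siRNA targets NRAS, and the labels name no dose, time or delivery control, so an effect of delivery cannot be told apart from one of poly(dA:dT). Of 55243 genes with a symbol of their own, the 13820 with at least 1 TPM, a read share scaled for transcript length, in at least 3 of the 6 siQ61K libraries were tested.

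Cytosolic DNA is sensed by cGAS, which signals through STING, and AT-rich DNA can also be copied by RNA polymerase III into RNA that the helicase RIG-I (DDX58) detects and passes on through MAVS. Both routes reach the kinase TBK1 and the factor IRF3 and lead to transcription of interferon genes. Secreted type I interferon binds IFNAR1 and IFNAR2, the kinases JAK1 and TYK2 then act on STAT2, and this joins IRF9 in the factor ISGF3, which switches on interferon-stimulated genes. The study asked about the interferon-alpha response in cells with mutant NRAS knocked down.

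NRAS itself stood at 20.1, 20.3 and 23.5 TPM with poly(dA:dT), against 15.5, 15.2 and 19.9 TPM with DMSO under siQ61K. The values did not overlap, but the difference did not pass the test (log2 fold change 0.33, SE 0.16, adjusted p = 0.148; 0.16 after the correction, adjusted p = 0.233). Under siNC, NRAS was at 42.97, 45.9 and 51.7 TPM with poly(dA:dT) and at 59.6, 60.6 and 41.4 TPM with DMSO, above every siQ61K library. TPM of the gene does not separate the mutant from the normal allele.

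Poly(dA:dT) under siQ61K raised a large set of interferon-stimulated genes. Of the 106 tested members of 5 lists of interferon effectors, 65 were called higher and 3 lower, with a median log2 fold change of 1.02 against a median of -0.148 over all genes tested. Of the 64 also called higher after the correction given below, 9 had a mean under 1 TPM with DMSO. Such genes, IFI44L, BST2, RSAD2 and HERC5 among them, can pass the filter through the poly(dA:dT) libraries alone. They can then hardly be called lower, so they add little to these counts. Among all 13820 genes 7.58% were called higher and 19.9% lower at an adjusted p under 0.05 (limma on log2(TPM + 1)), that is 1047 higher and 2748 lower. The summed TPM of the effectors made up 0.962%, 0.884% and 0.791% of the libraries with poly(dA:dT), against 0.408%, 0.395% and 0.424% of those with DMSO, and these groups did not overlap. Groups without overlap were common among the 13820 genes. In 1706 genes all poly(dA:dT) libraries were higher than all DMSO libraries, and in 3960 all were lower. A lack of overlap below is therefore a description of the values and no mark of a gene. Fold changes on the log2(TPM + 1) scale understate the change of low genes, and all log2 fold changes below are poly(dA:dT) over DMSO under siQ61K unless another group is named. A bare value in parentheses after a gene is its log2 fold change.

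**Figure D1:**
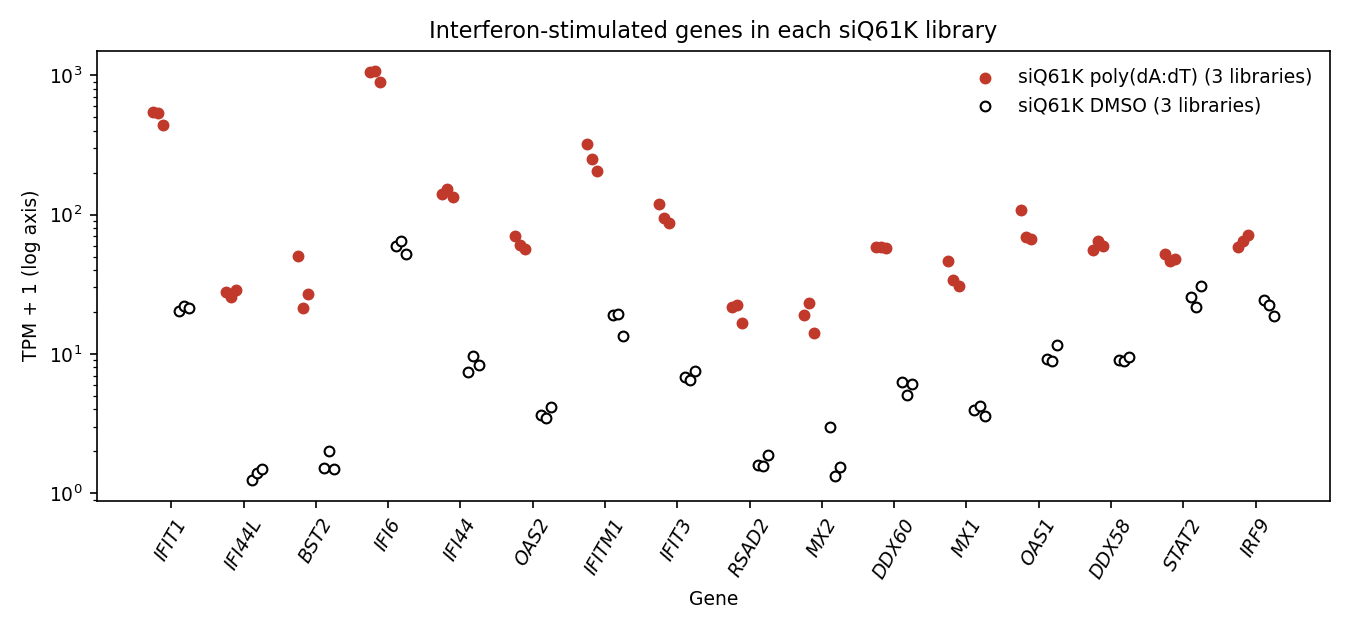
TPM on a log axis of 16 interferon-stimulated genes in each library; filled points are the 3 siQ61K libraries with poly(dA:dT), open points the 3 with DMSO, and TPM is plotted after adding 1. For each of the 16 genes the poly(dA:dT) libraries lie above all DMSO libraries, as for IFIT1 with 542, 535 and 440.2 TPM against 19.4, 20.9 and 20.2 TPM.

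The many lower calls followed the GC content of the genes. Log2 fold changes correlated with GC content across genes at Spearman -0.588. In the 3441 genes of lowest GC content, 548 were called higher and 46 lower, whereas in the 3441 genes of highest GC content 40 were called higher and 1670 lower. Each library had its own trend of level with GC content, with Spearman values of 0.1, -0.279 and -0.453 with poly(dA:dT), against 0.537, 0.541 and 0.305 with DMSO. Removing a smooth trend with GC content and transcript length from every library took the correlation to 0.007 and left 770 genes higher (5.6%) and 483 lower (3.51%) of 13762. Both with and without the correction, 487 genes were called higher and 399 lower. Whether the trend came from the preparation of the libraries or from the cells was not tested, so a call is given below with its corrected value wherever the correction changed it. Each list count below stands beside 7.58% higher and 19.9% lower over all genes, or 5.6% and 3.51% after the correction.

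**Figure D2:**
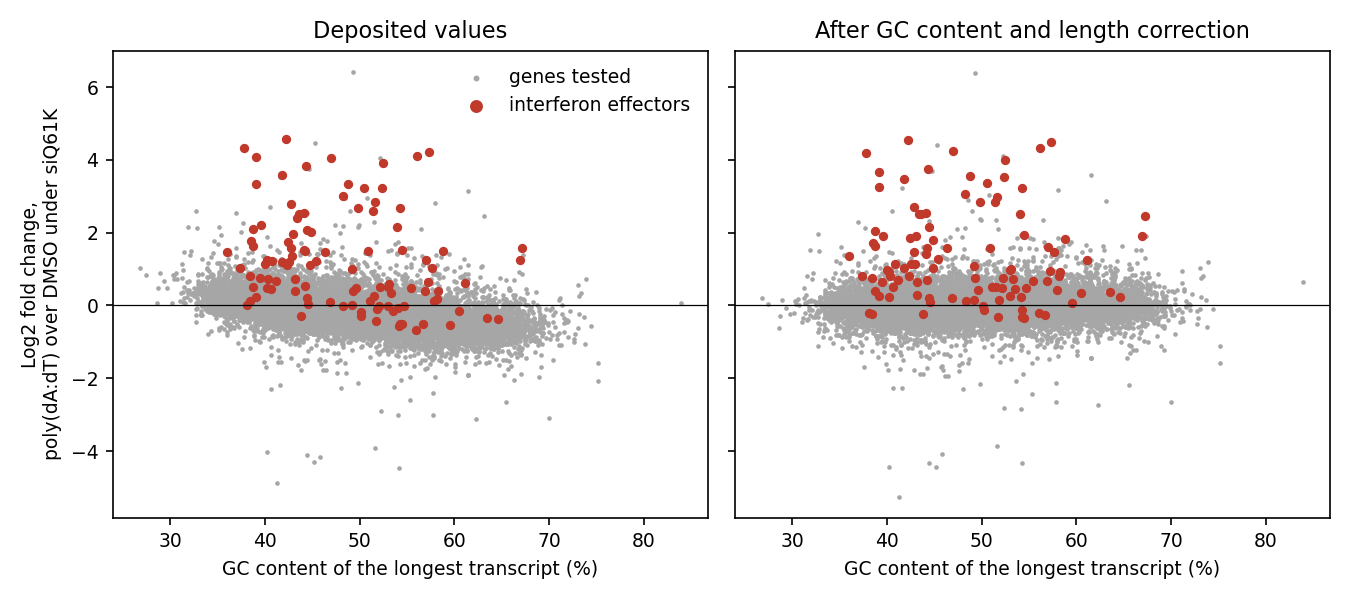
Log2 fold change of poly(dA:dT) over DMSO under siQ61K (vertical axis) against GC content of the longest transcript in percent (horizontal axis), for the deposited values on the left and after correction for GC content and length on the right; each point is 1 gene and interferon effectors are drawn in colour. The downward slope of the left panel (Spearman -0.588) is absent on the right (0.007), while many of the coloured effectors lie high in both.

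A stricter view kept only genes called in the same direction in each of the 29 fits in which they could be tested, which included other scalings, the correction, and the loss of any 1 library. This left 81 higher genes (0.586%) and 12 lower genes (0.0868%). Of the 81, 59 were on the effector, MHC class I, ISGF3 or sensor lists and 22 were on none of these, while none of the 12 lower genes was on them. The fits share libraries and are not separate evidence. The study's description already names this response as enriched in these samples, so these lists are not independent evidence of its direction.

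The interferon ligands themselves were listed at or near 0. Of 21 type I and III interferon genes, 16 were listed at 0 in all 6 siQ61K libraries and only IFNE passed the filter on low values. IFNB1, the first interferon made by most cells after DNA or RNA sensing, was listed at 0.226, 0 and 0 TPM with poly(dA:dT) and at 0 in the 3 libraries with DMSO. IFNL1, a type III interferon, was listed at 0, 0.356 and 0 TPM with poly(dA:dT) and at 0 in the 3 libraries with DMSO. IFNE, better known from the lining of the reproductive tract, stood at 1.76, 1.38 and 2.39 TPM against 1.54, 1.10 and 1.49 TPM and was not called (log2 fold change 0.25, SE 0.22, adjusted p = 0.438). A value above 0 in 1 library of 3 is no sign of a difference, and the depth of these libraries is unknown. An exact 0 in the deposited table can be a failed estimate, since EIF4A3, which every cell uses, and ISG15 were listed at 0 in some libraries too, so a 0 does not show that a gene is silent.

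Among the RNA sensors, the large change was in RIG-I. DDX58, which encodes it, stood at 54.6, 63.5 and 58.8 TPM with poly(dA:dT), against 8.02, 7.98 and 8.48 TPM with DMSO (log2 fold change 2.71, SE 0.13, adjusted p = 2.75e-08), and the groups were far apart. DHX58, which encodes the related regulator LGP2, rose less evenly, with 21.6, 7.76 and 6.79 TPM against 4.63, 3.90 and 4.42 TPM, and library 1 of the poly(dA:dT) group was the highest (log2 fold change 1.12, SE 0.33, adjusted p = 0.0256). IFIH1, which encodes the sensor MDA5, was low at 3.45, 2.76 and 1.01 TPM against 0.585, 1.23 and 1.40 TPM and was not called (log2 fold change 0.66, SE 0.31, adjusted p = 0.131). The endosomal RNA receptor TLR3 was not called either, at 4.26, 3.81 and 4.40 TPM against 1.76, 1.72 and 4.28 TPM (log2 fold change 0.60, SE 0.26, adjusted p = 0.0992).

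Adaptors and cofactors of RNA sensing were called in both directions. MAVS, the mitochondrial adaptor of RIG-I, stood at 5.89, 4.93 and 4.44 TPM against 7.79, 6.70 and 9.44 TPM and was called lower (log2 fold change -0.56, SE 0.18, adjusted p = 0.0347), but not after the correction (log2 fold change -0.03, adjusted p = 0.916). TICAM1, the adaptor of TLR3 (log2 fold change -0.88), and NLRX1, a negative regulator at mitochondria (-0.66), were called lower as well and had -0.31 (adjusted p = 0.125) and 0.01 (adjusted p = 0.96) after the correction. MEX3C, a ubiquitin ligase reported to act on RIG-I, fell both with and without the correction, at 4.01, 3.63 and 1.04 TPM with poly(dA:dT) against 16.01, 9.24 and 24.7 TPM with DMSO (log2 fold change -2.19, SE 0.38, adjusted p = 0.00403; -2.28 after the correction, adjusted p = 0.00806). ZC3HAV1, the antiviral zinc finger protein ZAP, rose by 0.54 (adjusted p = 0.0461), and TRIM25, the ubiquitin ligase for RIG-I, was called only after the correction (0.13, adjusted p = 0.649, against 0.50 after the correction, adjusted p = 0.0222). Over the 16 genes of this list 3 were higher and 5 lower, and 4 and 1 after the correction, with a median of 0.04.

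Subunits of RNA polymerase III, the enzyme that can copy poly(dA:dT) into a RIG-I ligand, were called in both directions. Of 13 genes 2 were called higher and 2 lower, with a median of -0.04, which is no result about the list beside the shares over all genes. Only POLR1D, a subunit shared with RNA polymerase I, was called with both kinds of value. It stood at 264, 407 and 386 TPM with poly(dA:dT), against 228, 258 and 227 TPM with DMSO (log2 fold change 0.54, SE 0.15, adjusted p = 0.017; 0.77 after the correction, adjusted p = 0.0292). The catalytic subunit POLR3A stood at 8.43, 6.55 and 7.88 TPM against 10.1, 8.48 and 13.99 TPM (log2 fold change -0.44, SE 0.18, adjusted p = 0.0869). POLR3G, a subunit of the initiation subcomplex, stood at 23.1, 17.1 and 21.3 TPM against 15.9, 16.4 and 15.6 TPM (log2 fold change 0.33, SE 0.14, adjusted p = 0.0938).

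Among DNA sensing genes, the sensors IFI16 and AIM2 rose and CGAS was not called. IFI16, a nuclear and cytosolic DNA sensor, stood at 277, 282 and 274 TPM with poly(dA:dT), against 94.1, 95.7 and 107 TPM with DMSO (log2 fold change 1.48, SE 0.09, adjusted p = 5.47e-07). AIM2, which nucleates an inflammasome on DNA, stood at 12.7, 12.8 and 12.6 TPM against 5.39, 5.12 and 3.61 TPM (log2 fold change 1.28, SE 0.17, adjusted p = 0.000745). Neither pair of groups overlapped. Under siNC, AIM2 stood at 9.47, 12.1 and 13.7 TPM with poly(dA:dT), against 11.999, 13.02 and 12.5 TPM with DMSO, so its low values lay in the siQ61K DMSO libraries. With DMSO it was lower under siQ61K than under siNC (log2 fold change -1.26, adjusted p = 0.000183). CGAS, the enzyme that makes the messenger for STING, was low at 1.37, 1.24 and 1.88 TPM against 0.935, 1.29 and 1.09 TPM and was not called (log2 fold change 0.24, SE 0.24, adjusted p = 0.478).

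STING1 stood at 34.2, 21.05 and 22.5 TPM with poly(dA:dT), against 37.3, 35.1 and 41.1 TPM with DMSO, and was called lower (log2 fold change -0.56, SE 0.17, adjusted p = 0.0257). It was not called after the correction (log2 fold change -0.09, adjusted p = 0.654). ZBP1, a sensor of Z-form nucleic acid, was below the filter, at 0.827, 0.0862 and 0.0884 TPM with poly(dA:dT), while the 3 libraries with DMSO were listed at 0. Of the cytosolic nucleases, SAMHD1, which degrades nucleotides and limits viral DNA synthesis, stood at 46.1, 37.9 and 43.3 TPM with poly(dA:dT), against 8.58, 8.87 and 10.7 TPM with DMSO (log2 fold change 2.07, adjusted p = 5.02e-06). TREX1, the main cytosolic DNA exonuclease, stood at 41.1, 43.9 and 53.03 TPM against 15.99, 4.88 and 5.03 TPM (log2 fold change 2.47, SE 0.58, adjusted p = 0.00979), with DMSO library 1 apart from the other two. Over the 20 tested genes of this list 5 were higher and 3 lower, and 7 and 1 after the correction.

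Of 15 kinases, adaptors and factors between the sensors and interferon transcription, 1 was called higher and 4 lower, with a median of -0.27, and none was called after the correction. Beside the shares over all genes, 7.58% higher and 19.9% lower, this is no result about the list. IRF3, the factor that TBK1 activates, stood at 51.5, 48.1 and 56.5 TPM with poly(dA:dT), against 86.4, 78.3 and 64.5 TPM with DMSO (log2 fold change -0.54, SE 0.16, adjusted p = 0.0271; -0.03 after the correction, adjusted p = 0.928). TBK1 stood at 20.7, 24.05 and 27.4 TPM against 18.7, 14.4 and 22.7 TPM (log2 fold change 0.37, SE 0.18, adjusted p = 0.15). IRF7, which amplifies interferon-alpha transcription in many cells, was below the filter, at 0.331, 0 and 0.155 TPM against 0, 0.228 and 0.542 TPM. TANK, a scaffold for TBK1, was the member called higher (log2 fold change 0.48, SE 0.15, adjusted p = 0.035) and had 0.12 after the correction (adjusted p = 0.471). These are transcript levels, and activation of the kinases and factors by phosphorylation was not measured.

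STAT2 and IRF9, which take part in ISGF3, rose. STAT2 stood at 50.9, 45.8 and 47.1 TPM with poly(dA:dT), against 24.8, 20.9 and 29.5 TPM with DMSO (log2 fold change 0.92, SE 0.15, adjusted p = 0.00275). IRF9 stood at 57.9, 63.3 and 70.5 TPM against 23.3, 21.3 and 17.8 TPM (log2 fold change 1.58, SE 0.13, adjusted p = 1.14e-05). No values overlapped, the log2 fold change of IRF9 was the larger one, and both calls held in each of the 29 fits.

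The receptors and kinases above ISGF3 did not pass. IFNAR1 stood at 17.5, 13.8 and 17.4 TPM with poly(dA:dT), against 16.6, 17.2 and 21.4 TPM with DMSO (log2 fold change -0.17, SE 0.20, adjusted p = 0.546). JAK1 stood at 46.03, 34.5 and 50.03 TPM against 50.2, 44.7 and 74.1 TPM (log2 fold change -0.35, SE 0.19, adjusted p = 0.192). STAT3, which serves other cytokines, was called lower (log2 fold change -0.64, adjusted p = 0.0155), but not after the correction (-0.31, adjusted p = 0.0691). IFNGR2, a chain of the interferon-gamma receptor, was called only after the correction (0.56, adjusted p = 0.0211). Of the 13 tested genes of this list 3 were higher and 1 lower, and after the correction 4 and 0.

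Among genes that restrain interferon signalling, USP18 and TRIM21 rose. USP18, which removes ISG15 from proteins and blocks the receptor, stood at 30.2, 21.3 and 22.3 TPM with poly(dA:dT), against 3.08, 2.02 and 2.58 TPM with DMSO (log2 fold change 2.84, SE 0.25, adjusted p = 1.97e-05). TRIM21, an antibody receptor that also marks IRF3 for degradation, stood at 55.4, 56.5 and 52.3 TPM against 19.5, 18.2 and 18.7 TPM (log2 fold change 1.49, SE 0.14, adjusted p = 4.49e-05). The suppressors SOCS1 (6.68, 2.78 and 4.91 TPM against 6.54, 6.77 and 5.34 TPM) and SOCS3 (7.27, 3.82 and 4.51 TPM against 11.1, 9.92 and 13.4 TPM) did not rise, and SOCS3 was called lower (log2 fold change -1.04, SE 0.24, adjusted p = 0.00828; -0.52 after the correction, adjusted p = 0.0633). The phosphatase PTPN2 was called higher (0.47, adjusted p = 0.017) but not after the correction (0.29, adjusted p = 0.0535). ADAR, which edits double-stranded RNA, was called only after the correction (0.39, adjusted p = 0.121, against 0.75 after the correction, adjusted p = 0.000747). Of 14 tested genes 3 were higher and 3 lower.

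Of the 106 tested effectors 65 were called higher, 3 lower and 38 in neither direction, and of the 5 effector lists the IFIT and IFI44 group had the highest median. Of its 11 tested members 9 were called higher, each in every fit, and none lower, with a median log2 fold change of 3.23. IFIT1, which binds viral RNA that lacks the cap modifications of the cell, stood at 542, 535 and 440.2 TPM with poly(dA:dT), against 19.4, 20.9 and 20.2 TPM with DMSO (log2 fold change 4.57, SE 0.15, adjusted p = 1.59e-09). IFI44L, an antiviral gene of unclear mechanism, stood at 26.9, 24.6 and 27.8 TPM against 0.243, 0.397 and 0.505 TPM (log2 fold change 4.31, SE 0.19, adjusted p = 1.24e-08). IFI44 stood at 139, 151 and 132 TPM against 6.44, 8.60 and 7.29 TPM (log2 fold change 4.07, SE 0.15, adjusted p = 2.61e-09). The lowest poly(dA:dT) library was far above the highest DMSO library for each of these.

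IFI6, a small membrane protein that limits cell death, was the most abundant of the group, at 1054, 1069.7 and 895 TPM with poly(dA:dT), against 58.7, 63.5 and 50.8 TPM with DMSO (log2 fold change 4.10, SE 0.16, adjusted p = 4.55e-09). IFI27 stood at 407, 477 and 359 TPM against 53.2, 51.5 and 28.6 TPM (log2 fold change 3.23, SE 0.26, adjusted p = 6.21e-06). IFIT3, a partner of IFIT1, stood at 119, 93.7 and 86.8 TPM against 5.85, 5.54 and 6.57 TPM (log2 fold change 3.84, SE 0.18, adjusted p = 2.75e-08). IFIT2 rose by 2.78, IFI35 by 1.51 and IFIT5 by 1.04 on the log2 scale. IFI27L1 (-0.50, adjusted p = 0.366) and IFI27L2 (-0.52, adjusted p = 0.0746), relatives of IFI27, were the 2 members that did not pass.

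The OAS genes encode enzymes that sense double-stranded RNA and answer it with a small messenger molecule. OAS2 stood at 69.3, 59.2 and 55.5 TPM with poly(dA:dT), against 2.65, 2.48 and 3.17 TPM with DMSO (log2 fold change 4.05, SE 0.16, adjusted p = 4.55e-09). OAS1 stood at 107, 68.2 and 66.03 TPM against 8.16, 7.97 and 10.5 TPM (log2 fold change 3.01, SE 0.20, adjusted p = 1.27e-06). OAS3 rose by 2.68 and OASL, which has lost the enzyme activity, by 2.58. EIF2AK2, which encodes the kinase PKR that halts translation on double-stranded RNA, stood at 32.8, 28.99 and 31.1 TPM against 7.75, 8.51 and 12.2 TPM (log2 fold change 1.63, SE 0.16, adjusted p = 3.93e-05).

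Conjugation of ISG15, a ubiquitin-like protein, needs an activating enzyme, a carrier and a ligase. ISG15 itself was below the filter in the deposited table, at 0.424, 4.90 and 1.31 TPM with poly(dA:dT), against 0, 0.67 and 0 TPM with DMSO, and got no test. The ligase HERC5 stood at 9.49, 10.5 and 8.75 TPM against 0.733, 0.765 and 0.903 TPM (log2 fold change 2.55, SE 0.20, adjusted p = 5.01e-06). The carrier UBE2L6 stood at 211, 181 and 175 TPM against 122, 109 and 128 TPM (log2 fold change 0.65, SE 0.11, adjusted p = 0.00361). HERC6 rose by 1.48 (adjusted p = 0.000425). The activating enzyme UBA7, with 23.1, 18.8 and 15.8 TPM against 13.9, 11.8 and 17.8 TPM, was called only after the correction (0.39, adjusted p = 0.132, against 0.91 after the correction, adjusted p = 0.00484). Of the 6 tested genes 4 were called higher, and all 6 after the correction.

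Restriction factors act against viruses at defined steps. Of 22 tested, 17 were higher and 2 lower, with a median of 1.22. BST2 (tetherin), which holds budding virus on the cell, stood at 49.7, 20.4 and 26.1 TPM with poly(dA:dT), against 0.514, 0.997 and 0.503 TPM with DMSO (log2 fold change 4.22, SE 0.30, adjusted p = 2.18e-06). IFITM1, which blocks membrane fusion, stood at 322, 251 and 206 TPM against 18.1, 18.3 and 12.5 TPM (log2 fold change 3.91, SE 0.20, adjusted p = 5.78e-08). RSAD2 (viperin), an enzyme that makes a chain-ending nucleotide, stood at 20.8, 21.5 and 15.8 TPM against 0.604, 0.565 and 0.872 TPM (log2 fold change 3.59, SE 0.23, adjusted p = 7.54e-07). BST2 and RSAD2 were near 0 TPM with DMSO, and for all 3 genes the groups were far apart.

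MX1, a dynamin-like protein that traps viral components, stood at 45.8, 33.02 and 29.5 TPM with poly(dA:dT), against 2.96, 3.20 and 2.60 TPM with DMSO (log2 fold change 3.22, SE 0.21, adjusted p = 7.54e-07). Its relative MX2 stood at 17.9, 22.3 and 13.3 TPM against 2.01, 0.339 and 0.54 TPM (log2 fold change 3.33, SE 0.31, adjusted p = 2.49e-05). IFITM2 (0.47) and IFITM3 (0.41) rose by less and were abundant with DMSO too, as IFITM3 stood at 1556, 1403 and 1136 TPM against 1002, 1082 and 974 TPM. The cytidine deaminase APOBEC3B was called lower at 23.4, 20.6 and 21.9 TPM against 28.9, 28.4 and 32.2 TPM (log2 fold change -0.42, SE 0.11, adjusted p = 0.0174; -0.32 after the correction, adjusted p = 0.0372), and APOBEC3C was called lower only before the correction (-0.29, adjusted p = 0.0395). Near-identical family members, such as the IFITM and APOBEC3 genes, may share reads, so the split between them is uncertain.

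The wider set of interferon-stimulated genes rose in 30 of 62 tested members and fell in 1, with a median of 0.55, and the corrected values called 38 higher and none lower. DDX60, a helicase that helps RIG-I, stood at 57.6, 57.2 and 56.6 TPM with poly(dA:dT), against 5.28, 4.10 and 5.05 TPM with DMSO (log2 fold change 3.33, SE 0.23, adjusted p = 1.43e-06). PARP9, which works with the ubiquitin ligase DTX3L on interferon-stimulated chromatin, stood at 89.3, 73.4 and 74.9 TPM against 15.4, 13.8 and 13.6 TPM (log2 fold change 2.39, SE 0.13, adjusted p = 8.39e-08). DTX3L stood at 37.1, 38.1 and 32.5 TPM against 11.3, 10.5 and 14.9 TPM (log2 fold change 1.49, SE 0.15, adjusted p = 8.89e-05). All 3 were called in every fit.

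PLSCR1, a lipid scramblase with antiviral activity, was the highest of this list in TPM among those given here, at 299, 316 and 315 TPM against 67.9, 62.2 and 69.2 TPM (log2 fold change 2.21, SE 0.12, adjusted p = 1.64e-07). LGALS9, which encodes a galectin that binds the T-cell receptor TIM-3, stood at 25.1, 18.8 and 26.9 TPM against 3.22, 3.84 and 7.06 TPM (log2 fold change 2.15, SE 0.31, adjusted p = 0.00161). TNFSF10, which encodes the death ligand TRAIL, stood at 2.71, 2.15 and 2.25 TPM against 0.324, 0.34 and 0.618 TPM (log2 fold change 1.24, SE 0.22, adjusted p = 0.00426). It passed the filter through the poly(dA:dT) libraries alone, so its call is weak support. The guanylate-binding proteins GBP1 (1.59) and GBP3 (1.13) rose, while GBP2 stood at 18.5, 12.8 and 17.8 TPM against 14.05, 12.97 and 15.04 TPM and did not pass (log2 fold change 0.20, SE 0.16, adjusted p = 0.376).

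Among the poly(dA:dT) libraries, library 1 was the highest for 33 of the 64 effectors called higher with both kinds of value, library 2 for 20 and library 3 for 11, and the mean deviations from the group mean were 0.102, 0.01 and -0.112 on the log2(TPM + 1) scale.

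**Figure D3:**
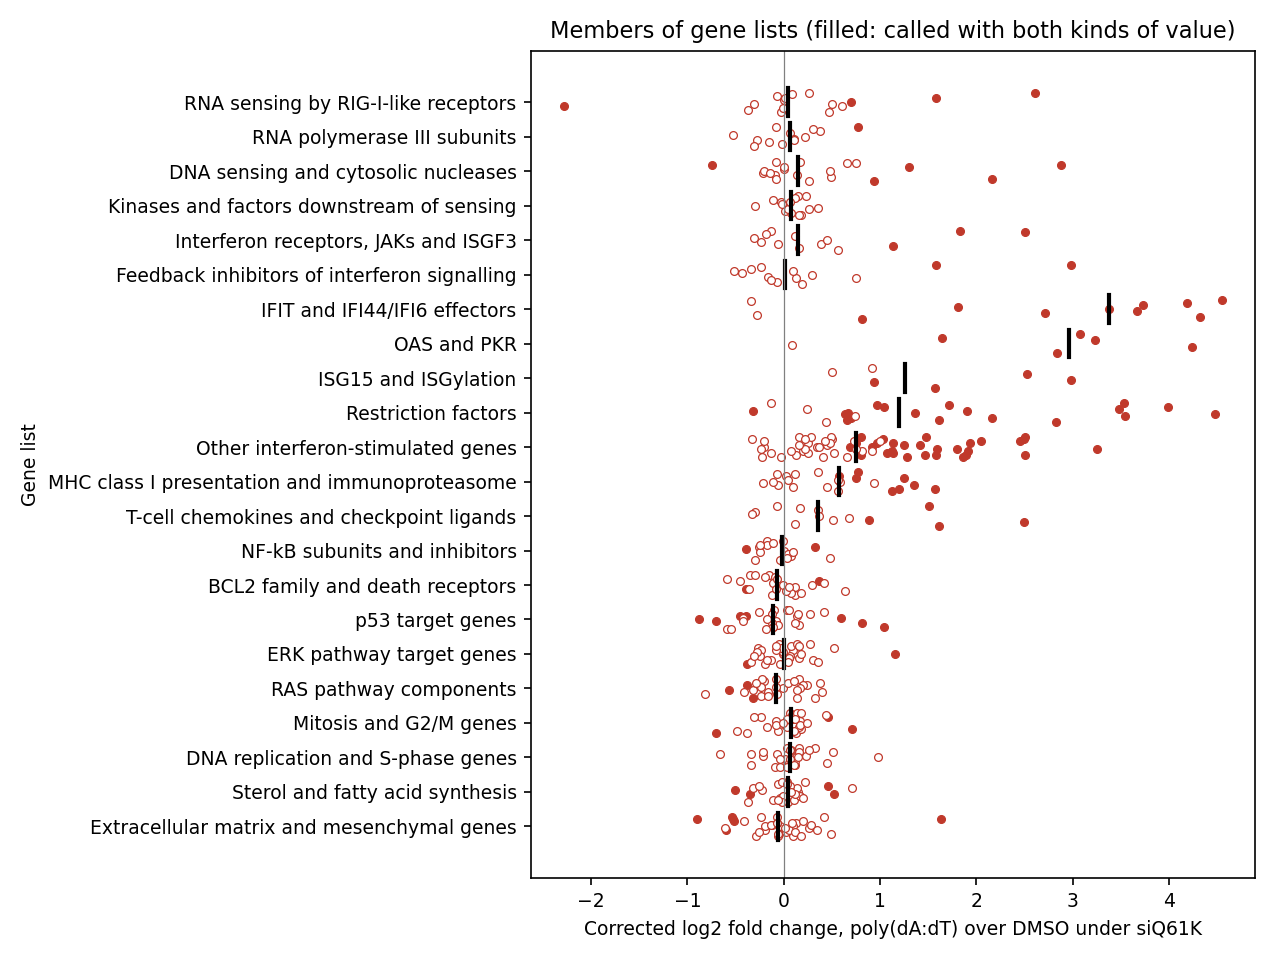
Log2 fold change of poly(dA:dT) over DMSO under siQ61K after correction for GC content and length (horizontal axis) for the members of 22 gene lists (rows, in order of role); each point is 1 gene, filled where it was called in the same direction with and without the correction, and the bar is the list's median. The IFIT and IFI44 list (median 3.38) and the OAS list (2.96) lie to the right, whereas the NF-kB (-0.02), ERK target (-0.00) and RAS (-0.08) lists are centred near 0.

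The promoters of the strongest genes are shown because ISGF3 binds a known element, the interferon-stimulated response element, of which the letters GAAANNGAAA are a simple form. Windows reach from 250 bases before to 50 after the RefSeq start site (GRCh38.p14) and are written along the gene's strand. They belong to the 6 genes of the every-fit set with the largest log2 fold changes among protein-coding genes with a single start site in that table. Capitals mark each match on either strand.

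IFIT1 (chr10:89392373-89392672, plus strand): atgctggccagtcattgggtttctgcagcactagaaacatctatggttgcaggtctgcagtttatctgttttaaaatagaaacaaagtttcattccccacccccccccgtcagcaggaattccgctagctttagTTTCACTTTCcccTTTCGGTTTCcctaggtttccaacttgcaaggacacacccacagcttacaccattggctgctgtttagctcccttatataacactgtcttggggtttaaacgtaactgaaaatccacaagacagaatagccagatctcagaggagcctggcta
IFI44L (chr1:78620198-78620497, plus strand): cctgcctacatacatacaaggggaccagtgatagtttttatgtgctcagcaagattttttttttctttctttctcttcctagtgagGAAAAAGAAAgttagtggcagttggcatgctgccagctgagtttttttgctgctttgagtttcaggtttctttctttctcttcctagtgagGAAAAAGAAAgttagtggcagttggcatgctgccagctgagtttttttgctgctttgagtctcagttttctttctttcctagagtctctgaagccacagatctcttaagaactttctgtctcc
BST2 (chr19:17405581-17405880, minus strand): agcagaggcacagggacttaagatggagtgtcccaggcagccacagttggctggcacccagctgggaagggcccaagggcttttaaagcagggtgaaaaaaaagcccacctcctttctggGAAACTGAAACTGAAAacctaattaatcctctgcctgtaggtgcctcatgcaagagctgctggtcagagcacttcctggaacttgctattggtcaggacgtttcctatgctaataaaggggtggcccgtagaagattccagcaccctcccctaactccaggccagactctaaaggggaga
IFI6 (chr1:27672143-27672442, minus strand): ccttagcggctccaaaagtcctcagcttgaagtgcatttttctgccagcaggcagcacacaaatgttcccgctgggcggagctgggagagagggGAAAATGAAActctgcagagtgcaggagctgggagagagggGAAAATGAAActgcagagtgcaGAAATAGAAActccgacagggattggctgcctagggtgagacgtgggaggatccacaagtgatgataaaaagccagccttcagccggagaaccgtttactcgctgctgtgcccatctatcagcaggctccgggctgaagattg
IFITM1 (chr11:313790-314089, plus strand): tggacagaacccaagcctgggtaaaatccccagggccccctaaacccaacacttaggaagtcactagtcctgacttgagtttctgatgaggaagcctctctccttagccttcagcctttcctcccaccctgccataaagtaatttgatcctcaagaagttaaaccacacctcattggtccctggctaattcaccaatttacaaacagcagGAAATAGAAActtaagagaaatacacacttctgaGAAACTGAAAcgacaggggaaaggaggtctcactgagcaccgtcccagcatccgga
DDX60 (chr4:168318703-168319002, minus strand): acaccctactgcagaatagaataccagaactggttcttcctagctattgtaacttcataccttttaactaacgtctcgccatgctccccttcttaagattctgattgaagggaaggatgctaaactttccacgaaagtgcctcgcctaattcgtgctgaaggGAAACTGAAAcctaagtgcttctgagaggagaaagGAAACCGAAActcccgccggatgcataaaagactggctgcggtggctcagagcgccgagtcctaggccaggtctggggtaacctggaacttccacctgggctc

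Each of these 6 windows held at least 2 matches. In IFIT1 they began at bases -116 and -103 from the start site, in IFI44L at -164 and -73, and in DDX60 at -88 and -53. In IFITM1 they began at -40 and -6, in IFI6 there were 3, and the 2 in BST2, at -130 and -124, overlap each other. The windows of DDX58, which rose, and of MAVS, which did not, held no match and are shown beside them:

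DDX58 (chr9:32526147-32526446, minus strand): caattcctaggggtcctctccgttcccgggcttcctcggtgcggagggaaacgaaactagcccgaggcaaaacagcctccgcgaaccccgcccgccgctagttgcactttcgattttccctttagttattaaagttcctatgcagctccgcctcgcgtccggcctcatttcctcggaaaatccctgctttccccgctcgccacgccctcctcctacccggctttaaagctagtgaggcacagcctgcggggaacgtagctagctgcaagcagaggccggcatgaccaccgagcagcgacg
MAVS (chr20:3846584-3846883, plus strand): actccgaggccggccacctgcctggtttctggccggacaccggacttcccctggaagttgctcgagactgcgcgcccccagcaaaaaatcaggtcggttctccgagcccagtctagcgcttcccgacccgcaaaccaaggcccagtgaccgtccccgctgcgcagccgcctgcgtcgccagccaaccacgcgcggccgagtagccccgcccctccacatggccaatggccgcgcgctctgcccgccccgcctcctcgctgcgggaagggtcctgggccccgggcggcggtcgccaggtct

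The motif was searched on both strands (its reverse complement is TTTCNNTTTC), and a gene counted if any of its listed start sites had a match. It was found in 1195 of 27305 genes with a promoter in the table (4.38%) and in 418 of the 10287 tested genes that could be matched by symbol (4.06%). Of the 67 matched genes that rose in every fit, 37 held it (55.2%). For those on the interferon lists this was 35 of 52 (67.3%) and for the others 2 of 15 (13.3%). The share among listed genes that did not rise was not counted. The 67.3% therefore cannot be tied to the response rather than to membership of the lists. Genes higher with both kinds of value held it in 58 of 370 (15.7%), genes lower with both in 11 of 295 (3.73%), and genes not called in 280 of 7318 (3.83%). A match describes letters in a window, binding of a factor was not measured, and a window without a match can hold other forms of the element.

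**Figure D4:**
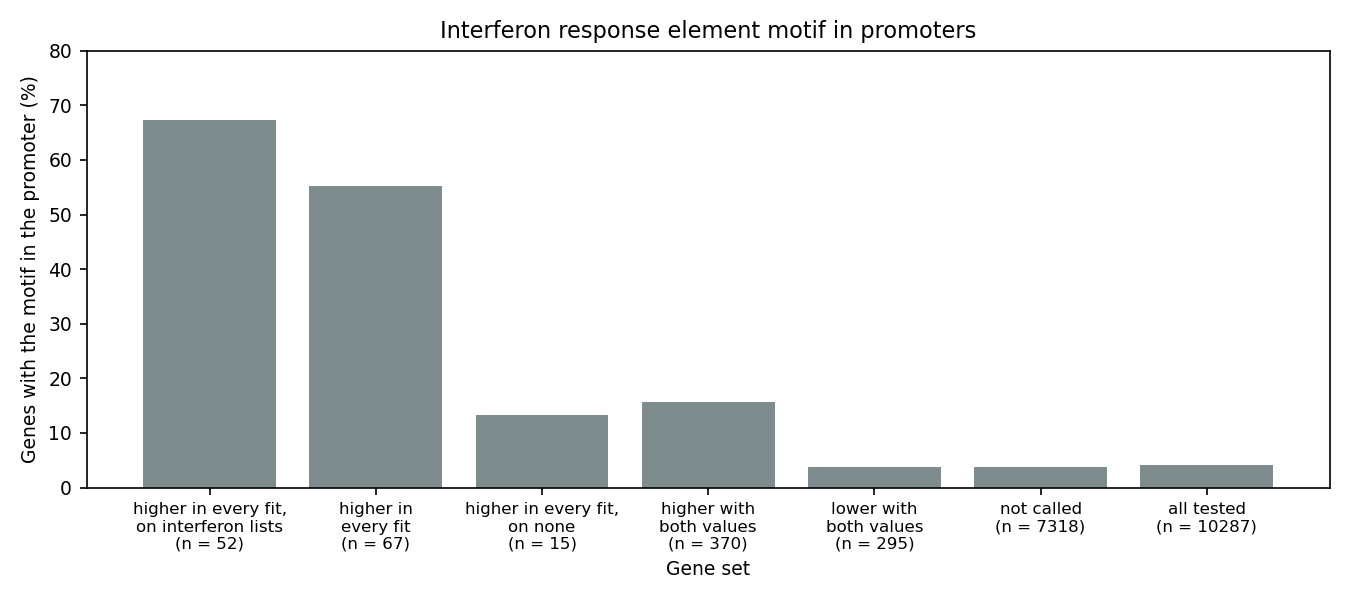
Percent of genes whose promoter window (250 bases before to 50 after a start site) holds the motif on either strand, by gene set, with the number of genes under each bar; bars start at 0. The share is 55.2% for genes higher in every fit and 67.3% for those of them on interferon lists, against 3.83% for genes not called.

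Some of the risen genes lie side by side. Taking protein-coding genes in GENCODE order, 18 runs of adjacent genes were called higher with both kinds of value and held at least 1 gene of the every-fit set. They covered 40 genes, 33 of them from that set of 81. The longest runs had 3 genes: OAS1, OAS3 and OAS2 on chromosome 12, TRIM34, TRIM5 and TRIM22 on chromosome 11, IFITM2, IFITM1 and IFITM3 on chromosome 11, and HERC6, HERC5 and PYURF on chromosome 4. MX2 and MX1 on chromosome 21, IFI44L and IFI44 on chromosome 1, CMPK2 and RSAD2 on chromosome 2, DDX60 and DDX60L on chromosome 4, and PARP9 and DTX3L on chromosome 3 were pairs. Several of these are families of duplicated genes. How often other genes lie in such runs was not counted, so the runs are a description without a background. The coordinates of the deposited table's build were not used here, and reads of overlapping neighbours may not be separated.

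Genes of MHC class I presentation, which shows peptides to T cells, rose in part, with a lower median than the 106 tested effectors (1.02, and 0.97 after the correction). Of 22 tested 8 were higher and 1 lower (median 0.26), and 12 and 0 after the correction (median 0.57). B2M, the light chain of every class I molecule, stood at 2939, 3189 and 3337 TPM with poly(dA:dT), against 1809, 1828 and 1728 TPM with DMSO (log2 fold change 0.82, SE 0.09, adjusted p = 0.00018). HLA-B stood at 64.8, 61.5 and 53.7 TPM against 30.6, 29.4 and 27.6 TPM (log2 fold change 1.01, SE 0.16, adjusted p = 0.0024). PSME2, a subunit of the proteasome activator PA28, stood at 349, 319 and 342 TPM against 184, 179 and 166 TPM (log2 fold change 0.93, SE 0.09, adjusted p = 5.33e-05). For each of these 3 genes the groups did not overlap.

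HLA-C rose by 0.78 (adjusted p = 0.0128), PSMB9, an immunoproteasome subunit, by 0.74 (adjusted p = 0.0125), and TAP1, a subunit of the peptide transporter, by 0.73 (adjusted p = 0.00702). NLRC5, the transactivator of class I genes, stood at 15.995, 26.1 and 15.9 TPM against 7.02, 12.5 and 10.9 TPM (log2 fold change 0.87, SE 0.23, adjusted p = 0.0168). TAPBP, the tapasin gene, was the member called lower (-0.42, adjusted p = 0.0398) and had 0.12 after the correction (adjusted p = 0.297). HLA genes are near-identical and vary between genomes, so their separate levels are uncertain.

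Chemokines that attract T cells rose from very low levels. CXCL10 stood at 4.18, 5.22 and 4.29 TPM with poly(dA:dT), against 0.545, 0.277 and 0.331 TPM with DMSO (log2 fold change 2.01, SE 0.25, adjusted p = 0.000425). CXCL11, which uses the same receptor, stood at 1.69, 3.34 and 1.63 TPM against 0.123, 0.19 and 0.167 TPM (log2 fold change 1.43, SE 0.24, adjusted p = 0.0033). CCL5 stood at 5.32, 5.97 and 4.59 TPM against 0.893, 1.16 and 1.60 TPM (log2 fold change 1.51, SE 0.23, adjusted p = 0.00243). None of these overlapped, all 3 remained at a few TPM, and CXCL9 was listed at 0.0269 TPM or less. CXCL10 and CXCL11 passed the filter through the poly(dA:dT) libraries alone, so their place among the higher genes is weak support. CD274, which encodes the checkpoint ligand PD-L1, stood at 8.35, 17.6 and 13.9 TPM against 8.67, 6.68 and 11.7 TPM, overlapped and was not called (log2 fold change 0.49, SE 0.25, adjusted p = 0.159). Of 13 tested genes of this list 4 were higher and 2 lower, PVR (-0.80) and NECTIN2 (-0.55), neither of which was called after the correction (adjusted p = 0.204 and 0.655).

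Of 18 tested genes of NF-kB signalling, the other branch of nucleic acid sensing, 1 was higher and 9 lower (median -0.44), and 1 and 1 after the correction (median -0.02). Over all genes the shares were 7.58% higher and 19.9% lower, and 5.6% and 3.51% after the correction. RELB, a subunit of the alternative pathway, stood at 15.2, 9.20 and 10.6 TPM with poly(dA:dT), against 25.4, 20.96 and 18.6 TPM with DMSO (log2 fold change -0.86, SE 0.20, adjusted p = 0.00862; -0.30 after the correction, adjusted p = 0.142). RELA, the main activating subunit, stood at 43.6, 26.6 and 29.3 TPM against 54.3, 46.8 and 64.6 TPM (log2 fold change -0.74, SE 0.17, adjusted p = 0.00872; -0.26 after the correction, adjusted p = 0.157). TNIP2, an inhibitor, was the 1 gene called lower with both (-0.86; -0.39 after the correction, adjusted p = 0.04). NFKBIA, an early target that reports NF-kB activity in many cells, was not called (log2 fold change -0.37, SE 0.16, adjusted p = 0.111).

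Inflammatory cytokines were mixed, and IL1B was not called, at 51.5, 34.1 and 46.7 TPM with poly(dA:dT), against 39.6, 43.1 and 46.3 TPM with DMSO (log2 fold change 0.02, SE 0.14, adjusted p = 0.932). CXCL8, a neutrophil chemokine, stood at 25.3, 27.8 and 32.8 TPM against 16.6, 12.3 and 16.8 TPM (log2 fold change 0.87, SE 0.17, adjusted p = 0.00506) and had 0.31 after the correction (adjusted p = 0.0784). IL11, a cytokine of the IL6 family, stood at 8.77, 2.83 and 6.11 TPM against 14.3, 12.98 and 14.1 TPM and was called lower with both (log2 fold change -1.20, SE 0.26, adjusted p = 0.00716; -0.87 after the correction, adjusted p = 0.0393). CFB, complement factor B, rose at low levels (2.53, 1.97 and 3.97 TPM against 1.54, 0.522 and 0.617 TPM; log2 fold change 1.02, SE 0.26, adjusted p = 0.0137). IL6 stood at 2.23, 1.56 and 2.12 TPM against 2.14, 1.33 and 1.21 TPM and was not called (log2 fold change 0.22, SE 0.26, adjusted p = 0.548).

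Of 8 tested pyroptosis and necroptosis genes 2 were higher and 1 lower, and 2 and 0 after the correction. CASP1, the inflammasome protease, stood at 17.3, 20.2 and 20.4 TPM with poly(dA:dT), against 8.45, 7.996 and 8.24 TPM with DMSO (log2 fold change 1.13, SE 0.20, adjusted p = 0.00383). GSDME, a pore-forming gasdermin, rose by 0.31 (adjusted p = 0.0489), whereas PYCARD, the inflammasome adaptor, was below the filter and listed at 0.18 TPM or less. NINJ1, which ruptures the membrane late in lytic death, was called lower at 26.6, 17.6 and 15.95 TPM against 31.999, 31.3 and 33.1 TPM (log2 fold change -0.69, SE 0.16, adjusted p = 0.00894), but not after the correction (-0.34, adjusted p = 0.0647). PMAIP1 (NOXA), a killer member of the BCL2 family, stood at 61.4, 74.1 and 75.7 TPM against 42.1, 39.2 and 39.4 TPM (log2 fold change 0.79, SE 0.15, adjusted p = 0.00486; 0.37 after the correction, adjusted p = 0.0205). BBC3 (PUMA), of the same class, went the other way at 51.5, 37.6 and 29.2 TPM against 80.2, 71.99 and 66.8 TPM (log2 fold change -0.90, SE 0.20, adjusted p = 0.00728; -0.39 after the correction, adjusted p = 0.039). Of 24 tested BCL2 and death receptor genes 1 was higher and 9 lower, and 1 and 1 after the correction. Lower calls made up 19.9% of all genes before the correction and 3.51% after it.

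Targets of p53, which responds to DNA damage, also split. Of 29 tested 3 were higher and 13 lower (median -0.38), and 4 and 5 after the correction (median -0.11). For all genes these shares were 7.58% and 19.9%, and 5.6% and 3.51% after the correction. MDM2, the inhibitor of p53, stood at 132, 177 and 128 TPM with poly(dA:dT), against 80.5, 92.5 and 93.5 TPM with DMSO (log2 fold change 0.70, SE 0.14, adjusted p = 0.00593; 0.82 after the correction, adjusted p = 0.0262). CCNG1 rose (0.92; 0.60 after the correction, adjusted p = 0.0414). TP53I3 stood at 44.1, 18.5 and 25.8 TPM against 69.2, 67.8 and 67.2 TPM (log2 fold change -1.27, SE 0.25, adjusted p = 0.00509; -0.88 after the correction, adjusted p = 0.0205), and PHLDA3 fell too (-1.21; -0.70 after the correction, adjusted p = 0.0217). CDKN1A, the p21 cell cycle inhibitor, was called lower (log2 fold change -0.51, SE 0.10, adjusted p = 0.00489) but not after the correction (-0.10, adjusted p = 0.301).

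Stress genes were called in both directions. In the list of endoplasmic reticulum stress and ATF4 targets 5 of 27 were higher and 7 lower, and 3 and 1 after the correction. MANF, a secreted stress protein, rose with both (0.75; 0.80 after the correction, adjusted p = 0.00875) and DDIT4, an inhibitor of mTORC1, fell with both (-0.72; -0.37 after the correction, adjusted p = 0.0467). With DMSO, MANF was lower under siQ61K than under siNC (log2 fold change -0.88, adjusted p = 0.000606). In the heat shock and oxidative stress list 6 of 22 were higher and 4 lower, with thioredoxin, TXN, at 759, 964 and 1013 TPM with poly(dA:dT), against 572, 604 and 481 TPM with DMSO (log2 fold change 0.72, SE 0.13, adjusted p = 0.00478; 0.40 after the correction, adjusted p = 0.0351).

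The ERK pathway, through which mutant NRAS drives growth, lies downstream of the siRNA's target. Of 32 tested ERK target genes 1 was higher and 11 lower (median -0.23), and 2 and 1 after the correction (median -0.00). Shares over all genes were 7.58% higher and 19.9% lower, and 5.6% and 3.51% after the correction. SPRY2, a feedback inhibitor, was not called, at 19.7, 20.3 and 23.1 TPM with poly(dA:dT), against 21.2, 19.3 and 22.5 TPM with DMSO (log2 fold change 0.00, SE 0.11, adjusted p = 0.987). JUN, an AP-1 factor, stood at 67.8, 39.3 and 45.2 TPM against 90.9, 81.2 and 103 TPM and was called lower with both (log2 fold change -0.87, SE 0.18, adjusted p = 0.0055; -0.38 after the correction, adjusted p = 0.0471). EPHA2, a receptor kinase, was called lower (log2 fold change -0.90, adjusted p = 0.00478) but not after the correction (-0.27, adjusted p = 0.0849).

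Of 28 RAS pathway components none was called higher and 10 were called lower, and 1 and 4 after the correction. All genes tested had 7.58% higher and 19.9% lower calls, and 5.6% and 3.51% after the correction. RRAS, a relative of the RAS proteins, stood at 118, 88.7 and 90.4 TPM with poly(dA:dT), against 177, 159 and 151 TPM with DMSO (log2 fold change -0.72, SE 0.13, adjusted p = 0.00426; -0.32 after the correction, adjusted p = 0.0173). FGFR1, a growth factor receptor, stood at 30.6, 22.7 and 21.2 TPM against 39.9, 36.6 and 54.2 TPM and was called lower with both as well (log2 fold change -0.78, SE 0.17, adjusted p = 0.00655; -0.38 after the correction, adjusted p = 0.0315). SOS1, the exchange factor that loads RAS with GTP and that the study's title names, stood at 6.05, 6.20 and 7.75 TPM against 6.85, 5.96 and 11.3 TPM and was not called (log2 fold change -0.20, SE 0.24, adjusted p = 0.571). HRAS was not called either (-0.17, adjusted p = 0.344).

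Of 30 mitosis genes 3 were higher and 5 lower (median 0.05), and of 31 replication genes 2 and 5 (median -0.07), near the shares over all genes of 7.58% higher and 19.9% lower. TOP2A, the topoisomerase of mitotic chromosomes, stood at 99.4, 127 and 114 TPM with poly(dA:dT), against 57.8, 67.05 and 68.99 TPM with DMSO (log2 fold change 0.80, SE 0.12, adjusted p = 0.00155; 0.71 after the correction, adjusted p = 0.00956). PTTG1 (securin) rose with both (0.52; 0.46 after the correction, adjusted p = 0.0273) and KIF20A, a motor of cytokinesis, fell with both (-0.85; -0.71 after the correction, adjusted p = 0.0178). CDK1, the mitotic kinase, was called higher (log2 fold change 0.56, SE 0.14, adjusted p = 0.0116) but not after the correction (0.13, adjusted p = 0.257).

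Metabolic lists held many lower calls that the correction removed, as it did over all genes. There the lower calls went from 2748 (19.9%) to 483 (3.51%). Of 29 sterol and fatty acid genes 5 were higher and 12 lower, and 3 and 2 after the correction. DHCR7, the last enzyme of cholesterol synthesis, stood at 91.1, 55.6 and 53.6 TPM with poly(dA:dT), against 127, 118 and 142 TPM with DMSO (log2 fold change -0.98, SE 0.18, adjusted p = 0.00471; -0.51 after the correction, adjusted p = 0.0236). FASN, the fatty acid synthase, was called lower (log2 fold change -0.89, SE 0.19, adjusted p = 0.00684) but had -0.01 after the correction (adjusted p = 0.966), and its transcript has a GC content of 65.3%. SQLE, an early sterol enzyme, rose with both (0.48; 0.52 after the correction, adjusted p = 0.0136). Of 28 glycolysis and hypoxia genes 1 was higher and 11 lower, and 3 and 1 after the correction. SLC16A3, a lactate exporter, stood at 241, 146 and 146 TPM against 449.9, 389.7 and 414 TPM (log2 fold change -1.27, SE 0.18, adjusted p = 0.00143; -0.55 after the correction, adjusted p = 0.0151).

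In the extracellular matrix and mesenchymal list 1 of 37 was higher and 14 lower, and 2 and 7 after the correction. This and the marker count below stand beside 7.58% higher and 19.9% lower over all genes. After the correction these shares were 5.6% and 3.51%. LOXL2, which crosslinks collagen, stood at 246, 134 and 170.4 TPM with poly(dA:dT), against 355, 317 and 451 TPM with DMSO (log2 fold change -1.06, SE 0.20, adjusted p = 0.00509; -0.51 after the correction, adjusted p = 0.0414). SPARC, a matrix glycoprotein, stood at 2207, 1479.8 and 1868 TPM against 2735, 2709 and 3308 TPM (log2 fold change -0.67, SE 0.14, adjusted p = 0.00602; -0.53 after the correction, adjusted p = 0.0156). TWIST1, a mesenchymal transcription factor, stood at 12.3, 6.69 and 5.75 TPM against 25.6, 16.5 and 17.1 TPM (log2 fold change -1.20, SE 0.24, adjusted p = 0.00556; -0.90 after the correction, adjusted p = 0.0217). COL7A1, the anchoring fibril collagen, was the member called higher with both (0.75; 1.63 after the correction, adjusted p = 0.0166). Of 13 tested markers of mesenchymal cells none was higher and 7 were lower, and 0 and 2 after the correction, with VIM at 5251, 4728 and 5480.2 TPM against 6297, 5464 and 7742 TPM (log2 fold change -0.32, SE 0.12, adjusted p = 0.0636). VIM and SPARC, which mark mesenchymal cells, were abundant in every library, while THY1, at 0, 0.126 and 0 TPM against 0, 0.0586 and 0 TPM, and NT5E, at 0.0607, 0.205 and 0.0972 TPM against 0.0498, 0.0196 and 0.107 TPM, were listed near 0.

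Of 36 markers of other cell types, 7 passed the filter, and 1, KRT8, was called, lower and only before the correction (-0.52; -0.11 after the correction, adjusted p = 0.507). The summed TPM of the list ranged over 606.3 to 784.4 with poly(dA:dT) and 826.7 to 893.0 with DMSO and was mostly KRT8 and KRT18; its part in the results was not tested. The leukocyte marker PTPRC was listed at 0 in the 3 libraries with poly(dA:dT) and at 0.0125, 0 and 0.0678 TPM with DMSO, and 5 of the markers were at 0 in all 6. Of the 13 mitochondrially encoded mRNAs 1, MT-ND3, was called, at 7122, 9353 and 8621 TPM against 4510.5, 4037 and 3108 TPM (log2 fold change 1.11, SE 0.14, adjusted p = 0.000504; 0.75 after the correction, adjusted p = 0.0136).

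Of the lower genes, MKNK2, which encodes a kinase that phosphorylates the translation factor eIF4E downstream of ERK and p38, was called lower in every fit. It stood at 46.04, 30.5 and 26.4 TPM with poly(dA:dT), against 106, 89.4 and 115 TPM with DMSO (log2 fold change -1.60, SE 0.19, adjusted p = 0.000301; -0.93 after the correction, adjusted p = 0.000642). The values did not overlap, and the call held in all 29 fits. Of the 12 genes that were lower in every fit, the 7 protein-coding ones given next were named after their values were seen. NT5DC2, a member of a nucleotidase family, stood at 79.04, 90.6 and 74.1 TPM against 174, 156 and 173 TPM (log2 fold change -1.04, SE 0.10, adjusted p = 5.57e-05; -0.63 after the correction, adjusted p = 0.00618). CLN6, a membrane protein of the endoplasmic reticulum that is mutated in a lysosomal storage disease, stood at 19.9, 16.8 and 15.03 TPM against 35.2, 32.5 and 41.2 TPM (log2 fold change -1.04, SE 0.14, adjusted p = 0.00109; -0.64 after the correction, adjusted p = 0.00203). GLIPR1 (-0.80), SAFB, a scaffold attachment factor (-0.72), MRPL34, a mitochondrial ribosomal protein (-1.03), IMP4, a ribosome assembly factor (-0.63), and FAM207A (-1.30) were the other protein-coding ones beside EIF4A3. With DMSO, siQ61K stood above siNC for MKNK2 (log2 fold change 1.04), NT5DC2 (0.78), CLN6 (1.28), MRPL34 (1.19), IMP4 (0.71) and FAM207A (0.95). Each had an adjusted p of 0.013 or less, whereas GLIPR1 did not pass (0.32, adjusted p = 0.0506). Under siNC, CLN6 had means of 16.03 TPM with poly(dA:dT) and 14.3 TPM with DMSO. Its high values thus lay in the siQ61K DMSO libraries.

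Several of the largest changes in either direction belonged to pseudogenes or to genes that may share reads with copies elsewhere in the genome, and their values are uncertain. EIF4A3, a helicase of the exon junction complex, was listed at 0, 0.0474 and 0.451 TPM with poly(dA:dT), against 34.4, 15.6 and 13.5 TPM with DMSO (log2 fold change -4.15, SE 0.34, adjusted p = 7.97e-06). Under siNC it was at 0.137, 0.515 and 0.617 TPM with poly(dA:dT) and 0.079, 0.622 and 1.003 TPM with DMSO, so its high values lay in the siQ61K DMSO libraries. The ribosomal protein pseudogene RPL23AP42 was listed at 63.6, 154 and 261 TPM in siQ61K libraries with poly(dA:dT), against 3.23, 0 and 0 TPM with DMSO (log2 fold change 6.42, SE 0.87, adjusted p = 0.000994), and at 0, 14.03 and 2.50 TPM against 93.03, 154 and 403 TPM under siNC, the reverse order. The pseudogenes SRP9P1 (-4.31) and FAM3C2P (-4.88) were listed at 0 in the 3 poly(dA:dT) libraries under siQ61K, with 23.6, 63.2 and 3.89 TPM and 31.8, 15.7 and 45.9 TPM with DMSO. FHL1, a muscle and fibroblast LIM protein, stood at 34.9, 97.1 and 114 TPM against 4.52, 1.81 and 9.96 TPM (log2 fold change 3.74, SE 0.48, adjusted p = 0.000608), while under siNC it stood at 52.8, 33.9 and 33.8 TPM with poly(dA:dT) and 85.8, 43.1 and 49.6 TPM with DMSO, so its low values lay in the siQ61K DMSO libraries.

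Of the 22 genes that rose in every fit without being on the lists, some were named after their values were seen. HES4, a transcriptional repressor whose gene neighbours ISG15, stood at 126, 101 and 93.04 TPM with poly(dA:dT), against 62.6, 62.3 and 65.8 TPM with DMSO (log2 fold change 0.73, SE 0.11, adjusted p = 0.00269). TRIM69 stood at 26.95, 28.7 and 26.9 TPM against 12.5, 10.2 and 10.6 TPM (log2 fold change 1.24, SE 0.13, adjusted p = 7.86e-05) and lies next to B2M. CHMP5, a component of the ESCRT membrane remodelling machinery, stood at 141, 164 and 154 TPM against 77.6, 70.5 and 74.7 TPM (log2 fold change 1.03, SE 0.12, adjusted p = 0.000179). With DMSO, CHMP5 was lower under siQ61K than under siNC (log2 fold change -0.74, adjusted p = 0.000468). Its siNC means were 118 TPM with poly(dA:dT) and 125 TPM with DMSO, so its low values lay in the siQ61K DMSO libraries. DNAJA1, a cochaperone, rose by 0.68, SLC15A3, a transporter of endolysosomes, by 1.74 and RND3, a small GTP-binding protein, by 0.78. DNAJA1 was also lower with DMSO under siQ61K than under siNC (log2 fold change -0.31, adjusted p = 0.0197). Among noncoding genes, calls with both kinds of value covered 19 antisense genes higher and 12 lower of 626, and 13 lincRNAs higher and 16 lower of 526. Over all 13820 genes 487 were higher and 399 lower with both. Beside these shares the counts are no result about noncoding genes. The counting's use of strand is not given in the sources used here, so antisense genes cannot be told apart from their partners.

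The same agent under siNC gave fewer calls, and the difference between the responses was tested. Under siNC 11 genes were called higher and 6 lower, and all 11 were among the 81 genes that rose in every fit under siQ61K. The interaction, the response under siQ61K minus that under siNC, was higher in 917 genes (6.64%) and lower in 1824 (13.2%), and after the correction in 202 (1.47%) and 99. For the interferon effectors this was 53 of 106 higher and 2 lower, and 53 and 0 after the correction. Trends of the libraries with GC content differed under siNC too, with a median log2 fold change of -0.217 in the genes of lowest GC content and 0.149 in those of highest.

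**Figure D5:**
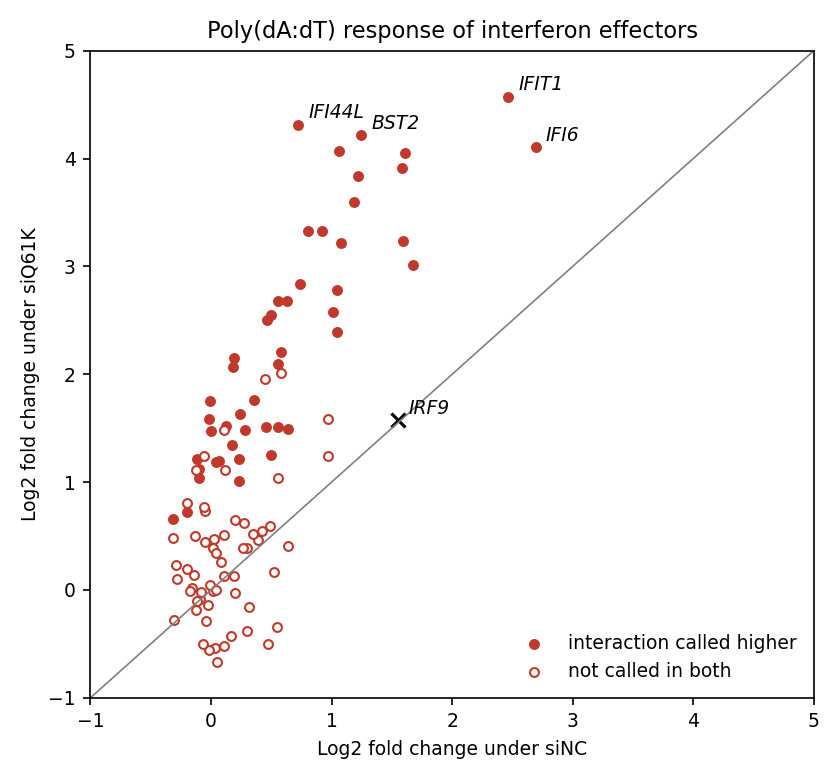
Log2 fold change of poly(dA:dT) over DMSO under siQ61K (vertical axis) against that under siNC (horizontal axis) for the 106 tested interferon effectors; filled points have an interaction called higher both with and without the correction, and the line marks equal responses. IFI44L lies at 4.31 and 0.72, far above the line, although the added 1 understates its siNC value, and IRF9, added as a labelled cross, at 1.58 and 1.55, on it.

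IFI44L responded under siQ61K as given above and stood at 0.753, 0.47 and 0.9 TPM with poly(dA:dT), against 0.0513, 0.0395 and 0 TPM with DMSO under siNC, an interaction of 3.59 (SE 0.27, adjusted p = 2.62e-05). DDX58 stood at 19.3, 17.2 and 19.5 TPM against 13.9, 14.5 and 11.3 TPM under siNC (interaction 2.24, SE 0.18, adjusted p = 5.64e-05). STAT2 stood at 15.1, 16.9 and 19.96 TPM against 14.1, 15.9 and 16.7 TPM under siNC (interaction 0.78, SE 0.21, adjusted p = 0.0221). Under siNC the STAT2 groups overlapped, while all poly(dA:dT) libraries of IFI44L and DDX58 were higher than their DMSO libraries. Under siQ61K the groups of each of these genes were far apart.

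IFI6 rose under both siRNAs, by 2.69 under siNC (119, 83.9 and 84.4 TPM against 11.3, 16.5 and 14.03 TPM), and its interaction was smaller (1.41, SE 0.23, adjusted p = 0.00541). IRF9 stood at 48.7, 44.8 and 46.4 TPM with poly(dA:dT), against 13.6, 14.8 and 17.5 TPM with DMSO under siNC, a log2 fold change of 1.55 beside 1.58 under siQ61K, and the interaction was not called (0.03, SE 0.19, adjusted p = 0.936; 0.39 after the correction, adjusted p = 0.233). A p that misses the threshold does not show that the 2 responses are equal.

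The added 1 in log2(TPM + 1) understates the response of a gene that is low, so it sets part of the interaction of genes that were low under siNC. IFI44L is one of them. MX2 stood at 1.78, 0.817 and 0.806 TPM with poly(dA:dT), against 0.0979, 0.0993 and 0.105 TPM with DMSO under siNC (interaction 2.40, adjusted p = 0.00724). RSAD2 stood at 2.49, 1.14 and 1.23 TPM against 0.0797, 0 and 0.306 TPM under siNC (interaction 2.41, adjusted p = 0.00231). For all 3 the siNC groups did not overlap, with the poly(dA:dT) libraries higher.

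Depth is unknown because TPM keeps none. Whether replicate libraries are separate cultures is not stated, so each p-value reflects the variation among the sequenced libraries alone, which may be technical. The siQ61K libraries correlated within their groups at 0.968 to 0.985 across genes (Pearson, log2(TPM + 1)). Exact permutation tests of single genes whose groups did not overlap gave p = 0.1, the smallest that 3 libraries against 3 allow. When poly(dA:dT) replicate 2 and DMSO replicate 3 under siQ61K were removed, which an earlier analysis of these data had left out, 124 genes were higher and 66 lower, and 55 of the 106 effectors were still called higher. Of the 125 called genes named here, 60 were no longer called then, among them CASP1 (adjusted p = 0.059), MDM2 (0.0698), CXCL8 (0.0541), MEX3C (0.0522) and EPHA2 (0.0701). Of the 125, 101 kept their call whichever 1 library was left out. The 24 that lost it without some library were APOBEC3B, APOBEC3C, CDK1, CFB, COL7A1, DHX58, GSDME, HLA-C, IFITM3, IRF3, KRT8, MAVS, NECTIN2, NLRC5, NLRX1, POLR1D, PSMB9, PTPN2, PVR, STAT3, STING1, TANK, TAPBP and ZC3HAV1. Fewer or more cells of a kind and less or more RNA per cell cannot be told apart in bulk samples.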

How the data were processed

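RNA was measured by sequencing in 12 libraries of HT1080 cells, of which the 6 siQ61K libraries carry the comparison and the 6 siNC libraries enter the shared estimate of the spread and the interaction. The authors deposited 1 table of TPM per gene, and per the submitters' processing notes Salmon 0.8.0 and the hg19 build were used. For the annotation, the summing to genes and the use of strand, nothing is stated in the sources used here. Per the labels' protocols RNA was purified with a column kit and libraries were made with the NEBNext Ultra kit and read on a NovaSeq instrument. Column names were matched to sample titles by their siRNA, treatment and number.

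Of 56227 entries, 984 that share 58 symbols were left out (at most 0.049% of TPM). Column sums of the deposited TPM were 964007 to 967331. TPM keeps no depth, so no counting interval can be given. Genes that reached 1 TPM in 3 or more siQ61K libraries were tested with limma 3.58.1 (R 4.3.3) on log2(TPM + 1), with 1 mean for each of the 4 groups, a trended variance, and p-values adjusted by Benjamini-Hochberg over 13820 genes at a threshold of 0.05. "Called" means past that threshold. The correction removed, in each library, a lowess curve (span 0.3, 3 passes) of level against GC content and length of the longest GENCODE 29 transcript, known for 13762 genes (99.58%). "With both kinds of value" means called in the same direction before and after it. Promoters are from RefSeq. Tested on simulated data with the same genes, the test of the response found 62% of genes raised by 1 on the log2 scale and 10% of those raised by 0.5, with 2 false calls among 13620. The simulated noise was independent between genes and libraries and held no trend with GC content, unlike the real values. The few false calls there do not give the rate of false calls in these data. Alternatives included other pseudocounts, filters, scalings, sample weights, fits with a replicate block, and fits that omit each library in turn. Python 3.11.15, SciPy 1.17.1, pandas 2.3.3 and matplotlib 3.10.9 were used.

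The comparison and the gene lists were chosen with earlier results of these data known. Named genes were NRAS and 15 pathway genes, the 15 highest and 15 lowest called with both kinds of value, up to 6 called members of each list, any member of lists of up to 16 genes, and the 10 largest interactions each way. Genes outside this rule, chosen after their values were seen, were APOBEC3B, APOBEC3C, CD274, CDKN1A, CHMP5, CLN6, CXCL9, DNAJA1, DTX3L, FAM207A, GBP1, GBP2, GBP3, GLIPR1, HES4, HRAS, IFITM2, IFITM3, IL1B, IL6, IMP4, KRT18, MDM2, MRPL34, NFKBIA, NT5DC2, PLSCR1, PTPRC, RND3, SAFB, SLC15A3, SPRY2, SQLE, TAP1, TAPBP, TBK1, TNFSF10, TRIM69 and ZBP1. Same-numbered siQ61K libraries deviated together at correlations of only 0.0551, 0.0612 and 0.0568, so the numbers were not treated as pairs. Some genes are not reported here.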

Additional observations from a re-analysis of the deposited data

Results flagged for a closer look

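For 57 named genes the poly(dA:dT) response under siQ61K was unlike that under siNC by the interaction term of limma, both with and without the correction for GC content and length. Over all 13820 genes tested, 155 were higher and 85 lower by the same rule. The named genes were chosen in part by the size of their response or interaction, so the count of 57 is no result about them. Values are the log2 fold change under siQ61K minus that under siNC. With 3 libraries a group, no single library was tested as an outlier.

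In the IFIT and IFI44 group the difference was 2.11 for IFIT1, 1.74 for IFIT2, 2.62 for IFIT3, 1.14 for IFIT5, 3.59 for IFI44L, 3.01 for IFI44, 1.41 for IFI6, 1.64 for IFI27 and 0.95 for IFI35. In the OAS group it was 1.33 for OAS1, 2.44 for OAS2, 2.05 for OAS3, 1.57 for OASL and 1.39 for EIF2AK2. Among restriction factors it was 2.98 for BST2, 2.32 for IFITM1, 2.14 for MX1, 2.40 for MX2 and 2.41 for RSAD2. Among other interferon-stimulated genes it was 2.52 for DDX60, 1.20 for DTX3L, 1.35 for PARP9, 1.61 for GBP1, 1.22 for GBP3, 1.62 for PLSCR1, 1.96 for LGALS9, 2.06 for HERC5 and 1.48 for HERC6. In class I presentation it was 0.85 for B2M, 0.73 for HLA-B, 0.91 for HLA-C and 0.57 for PSME2.

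Sensors and signalling genes with a larger response under siQ61K were DDX58 (2.24), IFI16 (1.18), SAMHD1 (1.88), STAT2 (0.78), TRIM21 (0.85) and USP18 (2.10). Outside the interferon lists the difference was positive for CHMP5 (1.11), DNAJA1 (0.77), TRIM69 (1.24), FHL1 (4.26), MANF (0.90), MT-ND3 (1.54) and the pseudogene RPL23AP42 (12.01). It was negative for MEX3C (-2.60), MKNK2 (-1.96), CLN6 (-1.19), FAM207A (-1.89), IMP4 (-0.96), MRPL34 (-1.49), NT5DC2 (-1.19), SAFB (-1.09), SLC16A3 (-1.77), PHLDA3 (-1.65), EIF4A3 (-4.04) and the pseudogene SRP9P1 (-4.31). The values of EIF4A3 and of the pseudogenes are uncertain because copies may share their reads. For FHL1, EIF4A3, CLN6, CHMP5 and MANF, among others, the DMSO libraries already differed between the siRNAs, as given above. Such a difference enters the interaction.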

How the results depend on the processing

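The count of genes called for the response under siQ61K was 3795, of which 27.6% were higher. It was 2328 with no filter on low values, 1253 with the GC content and length correction (61.5% higher) and 190 when poly(dA:dT) replicate 2 and DMSO replicate 3 under siQ61K were removed (65.3% higher). With both changes, an alternative chosen after seeing the data, it was 142. Leaving out 1 library gave 1787 to 4685 genes, with 1787 and 1818 when siQ61K poly(dA:dT) replicate 3 or 2 was omitted, and 2347 and 2429 when siQ61K DMSO replicate 3 or 1 was. The share of higher calls was 52.3% after median-of-ratios scaling and 48.1% after quantile normalization, which shifted the median log2 fold change of all genes to -0.007 and -0.006 against -0.148. The cause of these shifts was not tested.

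The count for the interaction was 2741. It was 1026 with no filter, 301 with the correction, 5807 with sample weights and 777 without the 2 libraries, or 81 with the correction as well, and leaving out 1 library gave 1105 to 3964. It was 1538, 1263 and 1564 when siQ61K poly(dA:dT) replicate 2, replicate 3 or siQ61K DMSO replicate 1 was omitted, 1428 and 1764 for siNC poly(dA:dT) replicates 1 and 2, and 1105 and 1746 for siNC DMSO replicates 1 and 2. With a replicate block the counts were 3538 for the response and 2393 for the interaction, and 1039 and 225 when the block was joined to the correction. Same-numbered siNC libraries deviated against each other at -0.0526, -0.0599 and -0.1153, and the numbers were not treated as pairs in the main fit. Such weak correlations cannot show whether same-numbered libraries share a culture or a batch.

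Among the genes named, the correction turned the sign of NLRX1 (0.0145, also with the block) and TAPBP (0.12, also with the block). With the correction and without the 2 libraries, NECTIN2 (0.0537), NLRX1 (0.0907), STING1 (0.0039) and TAPBP (0.17) turned as well. No called gene among those named turned under the other alternatives, and leaving out 1 library ended 1 to 20 of their calls. The depth behind these values is unknown, and the simulation found few changes of 0.5 on the log2 scale, so a gene not called may still differ.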
